A study of Mus musculus with 6 samples.

Results

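Interferon-stimulated genes are the genes that a cell switches on when interferon reaches its surface, and 31 of them were followed here in visceral fat, the adipose tissue of the abdominal cavity. The members were a list of named genes, chosen with earlier results of these data known. They were found by symbol among the 46603 gene identifiers of each count table. All 31 were among the 15828 genes that passed the filter on low counts. RNA was sequenced from C57/Bl6 mice aged 18 months that received no treatment, with 3 libraries from mice lacking nuclear myosin 1 (NM1 KO) and 3 from wild-type mice (WT). Nuclear myosin 1 is a nuclear isoform of the motor protein encoded by Myo1c, known for its part in transcription and chromatin organization. The labels do not say that each library came from a separate animal, nor give the sex or the part of Myo1c that was altered, so p-values reflect only how far these libraries differ, which may be technical.

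Type I and type III interferons bind receptors that activate the kinases JAK1 and TYK2. These lead to a complex, holding STAT2 and IRF9, that binds a DNA element, the interferon-stimulated response element, in front of its target genes. Type II interferon, made mainly by T and NK cells, acts on a different element, the gamma-activated sequence. Many of the induced proteins block steps in virus growth, while others (Irf7, Stat2, Irf9 and the RNA sensors) feed back to strengthen the response and Usp18 restrains it. In fat, macrophages and fat cells both respond to interferon.

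Because the members are defined by a shared response, the DNA in front of them is shown first. Promoter windows of 300 bases, from 250 before to 50 after the start of the gene, were found for 23 of the 31 members by symbol in RefSeq's GRCm38.p6 table, as 28 windows. The core of the response element was searched on both strands as GAAA, any pair of bases and GAAA again, which on the other strand reads TTTC, any pair of bases and TTTC. It occurred in the windows of 14 of the 23 members (60.9%), against 1079 of 27025 genes in the table (3.99%). The letters TTCNNNGAA, the form of the gamma-activated sequence, which reads the same on both strands, occurred for 4 of the 23 (17.4%), against 2582 of 27025 (9.55%). Stretches of 70 bases are given below for 9 members, 5′ to 3′ on the strand of the gene. They were chosen to show the matches of the main families of members and the contrasting Irf1. Capitals mark the response-element core on either strand in the first 8 stretches, and TTCNNNGAA in that of Irf1.
Isg15 (chr4:156200847-156200916, minus strand): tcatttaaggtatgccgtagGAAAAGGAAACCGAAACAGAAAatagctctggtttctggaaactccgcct
Oas1a (chr5:120907496-120907565, minus strand): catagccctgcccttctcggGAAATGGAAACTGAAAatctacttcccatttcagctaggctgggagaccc
Bst2 (chr8:71537553-71537622, minus strand): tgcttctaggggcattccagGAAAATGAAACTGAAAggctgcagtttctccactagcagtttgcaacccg
Ifit1 (chr19:34640765-34640834, plus strand): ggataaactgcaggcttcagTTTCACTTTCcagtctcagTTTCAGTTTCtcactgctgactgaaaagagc
Ifit3 (chr19:34583353-34583422, plus strand): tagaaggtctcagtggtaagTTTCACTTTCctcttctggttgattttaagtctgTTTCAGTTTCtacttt
Ifit3b (chr19:34607749-34607818, plus strand): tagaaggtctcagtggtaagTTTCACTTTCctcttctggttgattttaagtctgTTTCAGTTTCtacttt
Gbp2 (chr3:142620584-142620653, plus strand): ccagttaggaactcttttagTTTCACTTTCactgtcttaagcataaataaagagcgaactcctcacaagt
Stat2 (chr10:128270256-128270325, plus strand): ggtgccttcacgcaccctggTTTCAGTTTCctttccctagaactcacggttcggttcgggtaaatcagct
Irf1 (chr11:53769904-53769973, plus strand): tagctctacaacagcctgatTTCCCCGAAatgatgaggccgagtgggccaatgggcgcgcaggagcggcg

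The Isg15 stretch holds 3 overlapping matches, the first beginning at position -78 from the start, and those of Oas1a and Bst2 hold 2 overlapping matches each. The gamma-activated letters also begin at position -136 of the Bst2 window, where they overlap its first match. The stretches of Ifit3 and Ifit3b are the same letter for letter. The Irf1 window holds the gamma-activated letters at position -90 and no match to the response element. The Xaf1 window, on chromosome 11 from 72301379 to 72301678, held neither set of letters. Neither did the windows of Cmpk2, Ifi44, Irf7, Irf9, Oasl1 and Oasl2. A match is a string of letters and not a site shown to be bound.

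Total gene counts lay between 27525446 and 33537818 in the NM1 KO libraries and between 24677758 and 31228723 in the WT libraries. Levels below are CPM, counts per 1e6 counts with trimmed-mean (TMM) library sizes. Each log2 fold change is NM1 KO over WT, given ± SE. A gene counted as called when edgeR's quasi-likelihood test gave it an adjusted p under 0.05. By this rule 673 of 15828 genes passed (4.25%). Those above WT made up 2.79% of all tested genes and those below 1.47%. Myo1c itself, counted over all its isoforms, had 452, 697 and 551 CPM in NM1 KO replicates 1 to 3 and 801, 759 and 801 CPM in WT replicates 1 to 3. It was not called (adjusted p = 0.151), and a count over all isoforms does not check a loss of the nuclear one.

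None of the 31 interferon-stimulated genes was called by edgeR, where 4.25% of all tested genes were. Unadjusted p-values were under 0.05 for 2 members (23.7% of all tested genes), and DESeq2 and limma-voom each called 1, against 12.8% of the genes DESeq2 gave an adjusted p (7.66% higher, 5.14% lower) and 10.4% of those limma-voom tested (6.1% higher, 4.32% lower). That gene was Xaf1, higher in NM1 KO, with both tools. The log2 fold change was negative for 26 of 31 members, against 50.3% of all tested genes, with a median of -0.42 for the members and -0.0021 for all tested genes. With upper-quartile size factors 27 were negative, and with offsets for GC content and gene length 30 were, all but Xaf1. Leaving out WT replicate 3 left 17 of 31 negative. The members moved together between libraries, as described below, so these counts are not counts of separate observations. The CPM ranges of the genotypes were apart for 2 members, against 29.9% of all tested genes. Xaf1 was apart and higher (14.9% of all tested genes) and Irf1 apart and lower (15.0%). In bulk tissue, fewer cells that express a gene and less RNA per cell cannot be told apart.

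**Figure D1:**
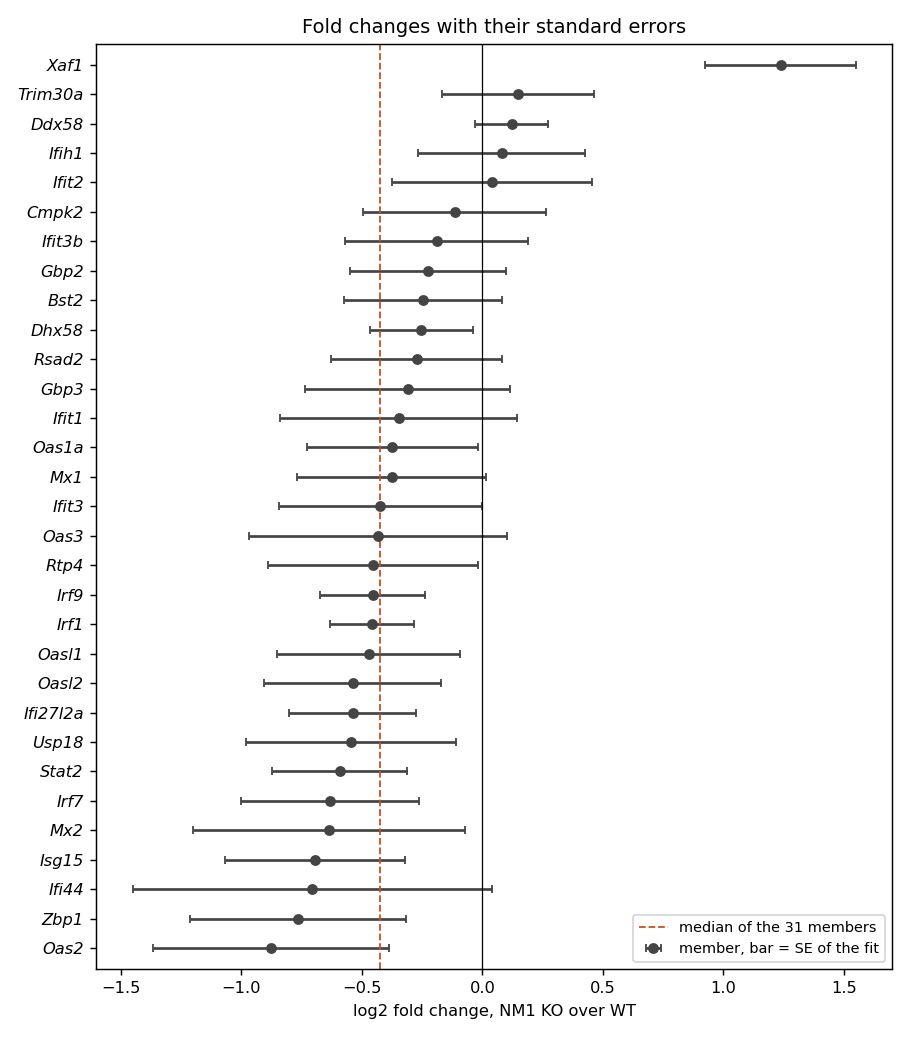
Log2 fold change (x axis, NM1 KO over WT) of each of the 31 interferon-stimulated genes (y axis), with bars for the SE of the fit and a dashed line at the members' median of -0.42. Xaf1 stands at 1.24, far to the right of the other members, which lie between -0.88 and 0.15.

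The members differed more between libraries of 1 genotype than most genes did. As the list was chosen with earlier results of these data known, the shares below describe it and do not test it. Their median log2 range was 1.07 over the NM1 KO libraries and 1.06 over the WT libraries, against 0.42 and 0.38 for all tested genes. The highest of the 6 libraries was at least 2-fold above the lowest for 28 members (39.4% of all tested genes), Irf1, Dhx58 and Ddx58 being the exceptions. WT replicate 3 had the highest CPM of the 3 WT libraries for all 31 members, against 32.3% of all tested genes. NM1 KO replicate 3 had the highest CPM of the 3 NM1 KO libraries for 30 members, against 24.1% of all tested genes, Dhx58 being the exception. Both held for 30 members, against 9.8% of all tested genes. Over the members, the median log2 difference between replicate 3 and the mean of its 2 group mates was 0.88 in NM1 KO and 0.84 in WT, and over all tested genes it was -0.0018 in NM1 KO and 0.0017 in WT. The labels do not say that the replicate numbers mark anything shared between the genotypes.

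Set against the mean of the WT libraries, the members' median log2 level was -0.85, -0.52 and 0.23 in NM1 KO replicates 1 to 3, and -0.28, -0.23 and 0.56 in WT replicates 1 to 3. The groups overlap, since NM1 KO replicate 3 stood above WT replicates 1 and 2. NM1 KO replicate 1 was the lowest of the 6 libraries for 20 members (25.8% of all tested genes), and WT replicate 3 the highest for 27 (15.3%). NM1 KO replicate 3 lay below WT replicate 3 for 27 members, with a median log2 difference of -0.46. It lay below WT replicate 1 for 2 members and below WT replicate 2 for 7, with median log2 differences of 0.45 and 0.47. Without WT replicate 3 the median fold change of the members was -0.069, and 17 of 31 were negative. Without NM1 KO replicate 3 it was -0.76, and without NM1 KO replicate 1 it was -0.16. Without replicate 3 of both genotypes, a choice made after seeing the data, it was -0.40 with 26 negative. In that fit edgeR called 0 genes of any kind, so the absence of called members says nothing about them. An unadjusted p under 0.05 was reached by 4 members and by 1970 of all tested genes.

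**Figure D2:**
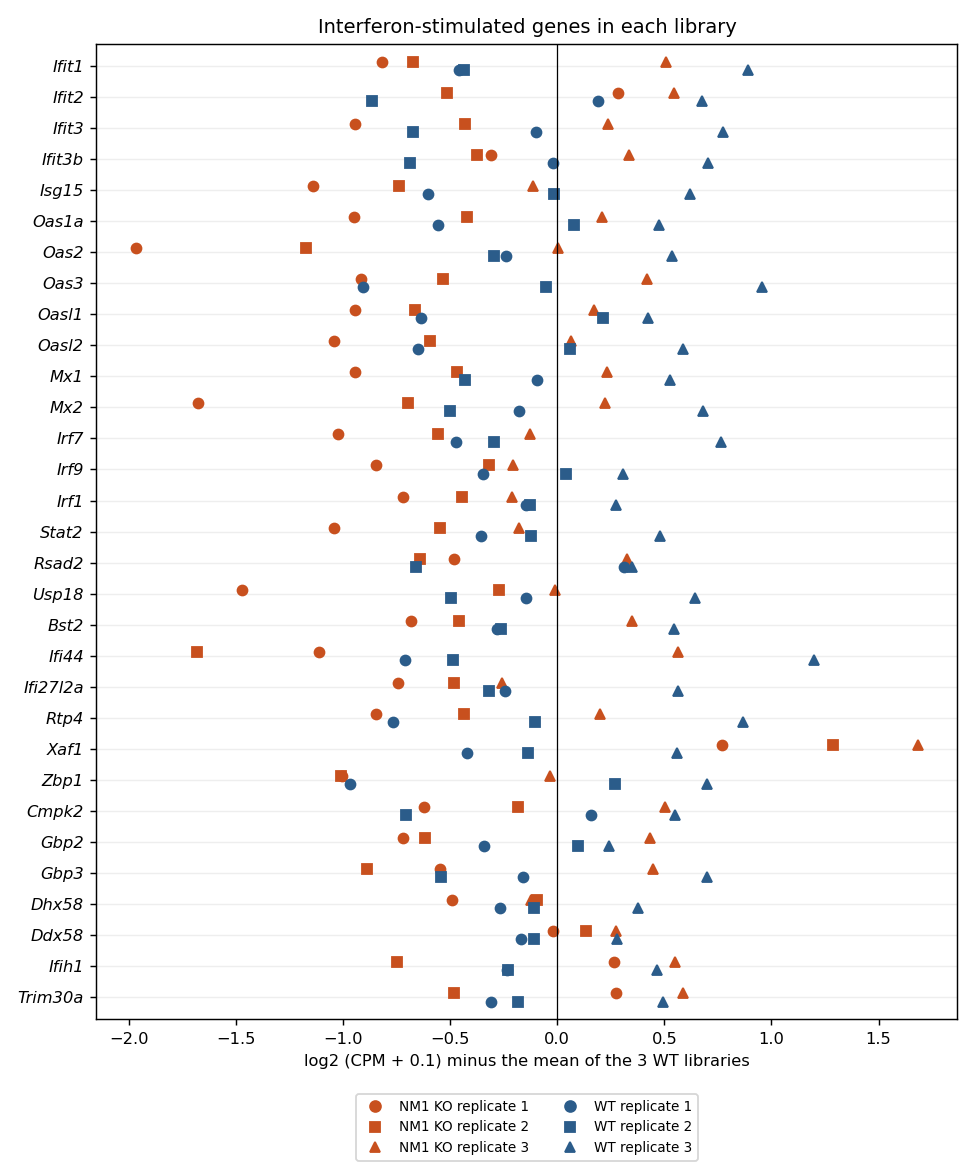
Level of each of the 31 members (y axis) in the 3 NM1 KO and 3 WT libraries, as log2(CPM + 0.1) minus the mean of the WT libraries (x axis), with circles, squares and triangles for replicates 1, 2 and 3. The triangles of both genotypes lie to the right within their group for 30 members, and for Xaf1 the 3 NM1 KO points lie right of all 3 WT points.

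The members' levels spanned a wide range. Per kilobase of exon, Ifi27l2a, a small protein of the ISG12 family, was highest with 1122 CPM per kilobase in NM1 KO and 1630 in WT. Next came Bst2, the protein tetherin that holds virus particles at the cell surface, with 85.6 in NM1 KO and 102 in WT. Gbp2, an interferon-induced GTPase, followed with 49.7 in NM1 KO and 58.0 in WT, then Irf1 with 18.2 in NM1 KO and 25.0 in WT. The lowest was Mx2, with 0.472 in NM1 KO and 0.734 in WT. The 5 highest members, with Ifit3 the fifth, held the same ranks in both genotypes, and the sum of all members was 1108, 1284 and 1843 CPM in NM1 KO replicates 1 to 3 and 1449, 1522 and 2551 CPM in WT replicates 1 to 3.

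The transcription factors of the response were all below WT in their means, and none was called. Irf1, which type II interferon induces, had 59.7, 72.2 and 85.0 CPM in NM1 KO and 88.9, 90.0 and 119 CPM in WT. The groups did not overlap, but the nearest libraries were close (log2 -0.46 ± 0.17, unadjusted p = 0.0322, adjusted p = 0.169 by edgeR). Stat2, a subunit of the activating complex, had 37.6, 53.0 and 68.5 CPM in NM1 KO and 60.4, 71.1 and 108 CPM in WT. NM1 KO replicate 3 exceeded WT replicate 1 there, and the log2 fold change was -0.59 ± 0.28 (edgeR adjusted p = 0.252).

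Irf9, the DNA-binding member of that complex, had 33.5, 48.3 and 52.3 CPM in NM1 KO and 47.4, 62.1 and 74.5 CPM in WT. The groups overlapped, with a log2 fold change of -0.46 ± 0.22 (edgeR adjusted p = 0.260). Irf9 shares part of its position with Rnf31 on the same strand, so reads of the overlap are uncertain. Irf1, Irf7, Oas2, Oasl1, Usp18, Rtp4, Gbp2, Dhx58 and Trim30a overlap genes on the opposite strand, and without a stated strand setting the reads of such overlaps cannot be told apart. Rtp4 also overlaps Gm45338 on its own strand and shares 13.6% of its 50-base words with it, so its level is uncertain. Irf7, which amplifies type I interferon production, had 21.2, 29.4 and 39.6 CPM in NM1 KO and 31.1, 35.2 and 73.6 CPM in WT. WT replicate 3 exceeded the sum of the other WT libraries, while NM1 KO replicate 3 lay above both of them, and the log2 fold change was -0.63 ± 0.37 (edgeR adjusted p = 0.344).

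**Figure D3:**
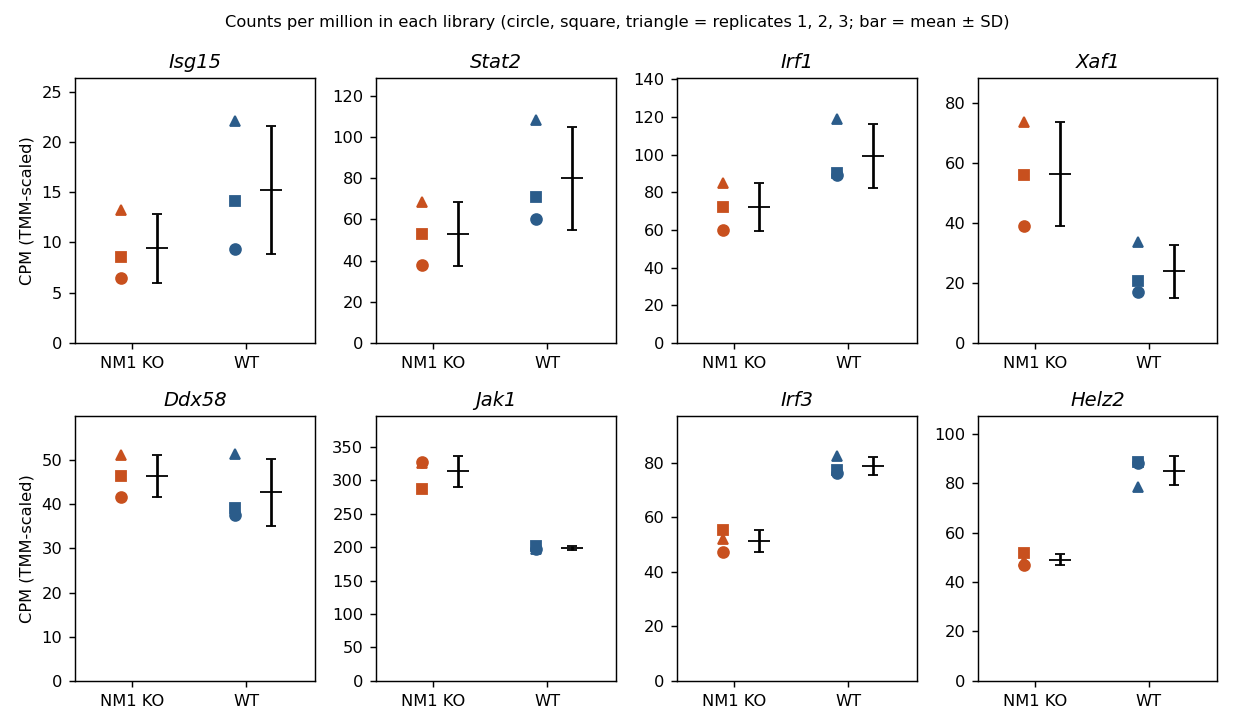
CPM (y axis, from 0) of 5 members and of the 3 pathway genes that were called, in NM1 KO (left) and WT (right), with symbols for replicates 1 to 3 and bars for the mean ± SD of 3 libraries. Isg15, Stat2 and Ddx58 overlap between the genotypes, while Irf1, Xaf1, Jak1, Irf3 and Helz2 do not.

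Isg15 encodes a ubiquitin-like protein that is attached to other proteins during the response. It had 6.44, 8.55 and 13.2 CPM in NM1 KO and 9.39, 14.2 and 22.1 CPM in WT, and the groups overlapped (log2 -0.69 ± 0.37, edgeR adjusted p = 0.306). Usp18 removes ISG15 from proteins and also damps signalling at the type I receptor. It had 3.60, 8.42 and 10.1 CPM in NM1 KO and 9.21, 7.19 and 15.9 CPM in WT, with NM1 KO replicate 1 lowest and 2 NM1 KO libraries inside the WT range (log2 -0.54 ± 0.44, edgeR adjusted p = 0.493).

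The IFIT proteins bind foreign RNA. Ifit1 had 9.17, 10.1 and 23.1 CPM in NM1 KO and 11.8, 12.0 and 30.2 CPM in WT, so that replicate 3 exceeded the sum of its group mates in each genotype (log2 -0.35 ± 0.49, edgeR adjusted p = 0.709). The other 3 members of this family had log2 fold changes of -0.42 for Ifit3, -0.19 for Ifit3b and 0.040 for Ifit2. Ifit3 and Ifit3b are near-identical copies. Of the 50-base words of the longest Ifit3 transcript, 51.2% also occur in Ifit3b, so the split of reads between them is uncertain.

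The OAS enzymes make a short RNA-like messenger that activates an RNA-degrading enzyme. The 5 members grouped here include the OAS-like Oasl1 and Oasl2, whose part in making that messenger was not examined. All 5 had negative fold changes, between -0.88 and -0.37, and none was called. Oas2 had 8.01, 14.0 and 31.7 CPM in NM1 KO and 26.8, 25.8 and 46.0 CPM in WT, with the widest spread but 1 of all members, and NM1 KO replicate 3 lay above WT replicates 1 and 2 (log2 -0.88 ± 0.49, edgeR adjusted p = 0.325). Oas1a shares 57.6% of its 50-base words with its copy Oas1g, so its level is uncertain. Oasl2, an OAS-like protein, had a log2 fold change of -0.54 ± 0.37 (edgeR adjusted p = 0.418).

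The Mx GTPases trap viral particles. In most laboratory mouse strains, C57BL/6 included, Mx1 carries a deletion of coding exons, but its RNA still reads out induction. Mx1 had 2.25, 3.17 and 5.21 CPM in NM1 KO and 4.14, 3.26 and 6.41 CPM in WT. The groups overlapped, with a log2 fold change of -0.38 ± 0.39 (edgeR adjusted p = 0.602). Mx2 is annotated as a polymorphic pseudogene, a gene that is intact in only some strains. It had 0.708, 1.50 and 2.91 CPM in NM1 KO and 2.18, 1.73 and 4.05 CPM in WT, which also overlapped (log2 -0.64 ± 0.56, edgeR adjusted p = 0.538).

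Ifi44 had the widest spread of all members. It stood at 1.77, 1.16 and 5.87 CPM in NM1 KO and 2.37, 2.78 and 9.18 CPM in WT, so replicate 3 exceeded both group mates together in each genotype (log2 -0.71 ± 0.75, edgeR adjusted p = 0.610). The remaining antiviral members Rsad2 (viperin), Cmpk2 (a nucleotide kinase encoded beside Rsad2), Bst2 and Rtp4 had fold changes between -0.46 and -0.11. Ifi27l2a had 433, 518 and 606 CPM in NM1 KO and 611, 581 and 1071 CPM in WT, and NM1 KO replicate 3 lay between WT replicates 2 and 1 (log2 -0.54 ± 0.26, edgeR adjusted p = 0.264). Gbp2 and Gbp3, interferon-induced GTPases that act on pathogens inside cells, had fold changes of -0.22 and -0.31.

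The 4 sensors of viral nucleic acid had log2 fold changes between -0.77 and 0.12. Ddx58, which encodes the RNA sensor RIG-I, had the narrowest spread of all members, at 41.7, 46.4 and 51.2 CPM in NM1 KO and 37.6, 39.2 and 51.3 CPM in WT (log2 0.12 ± 0.15, edgeR adjusted p = 0.667). Dhx58, its relative LGP2, had 9.91, 13.1 and 12.8 CPM in NM1 KO and 11.6, 12.9 and 18.2 CPM in WT. The groups overlapped for both genes, with a fold change of -0.25 ± 0.21 for Dhx58 (edgeR adjusted p = 0.518). Ifih1, the sensor MDA5, had a log2 fold change of 0.081 ± 0.35, and Zbp1, a sensor of Z-form nucleic acid, one of -0.77 ± 0.45 (edgeR adjusted p = 0.346). Trim30a, which in mice restrains Toll-like receptor signalling, had 36.7, 21.7 and 45.7 CPM in NM1 KO and 24.5, 26.7 and 42.7 CPM in WT, so that NM1 KO libraries were both the lowest and the highest (log2 0.15 ± 0.31, edgeR adjusted p = 0.810).

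Xaf1, a pro-apoptotic partner of the apoptosis inhibitor XIAP, had the largest positive fold change of the 5 positive ones among the members. It had 39.1, 56.0 and 73.9 CPM in NM1 KO and 17.0, 20.8 and 33.8 CPM in WT. The lowest NM1 KO library exceeded the highest WT library, and replicate 3 was again the highest of each group. The log2 fold change was 1.24 ± 0.31, with adjusted p-values of 0.0743 by edgeR, 0.00237 by DESeq2 and 0.0356 by limma-voom. When 1 library was left out the fold change lay between 0.996 and 1.56, and the edgeR adjusted p between 0.0698 and 0.187.

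Xaf1 (ENSMUSG00000040483, plus strand, 72301629 to 72313733 on GRCm38) lies on chromosome 11, 3.34 Mb from Myo1c, the targeted locus. Irf1 lies 21.9 Mb and Dhx58 25.0 Mb from it, and no other member is on that chromosome. Within 5 Mb of Myo1c, 10 of 167 tested genes were called (5.99%), 6 of them higher, against 4.25% of all tested genes. Of the genes within 0.5 Mb of Xaf1, Ankfy1 (log2 0.66, edgeR adjusted p = 0.0240) and Zzef1 (log2 0.51, edgeR adjusted p = 0.0423) rose. Pitpnm3 (log2 -2.31, edgeR adjusted p = 0.0307) and Spns2 (log2 -0.98, edgeR adjusted p = 0.0403) fell. These were the only tested neighbours that edgeR called, a larger share than the 4.25% of all tested genes. All were chosen after their values were seen. Whether position near the targeted locus plays a part in the Xaf1 level was not tested.

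Upstream of the members, the interferon genes themselves had almost no counts. Sequence shared among them was not examined, so the absence of counts need not mean that a gene was silent. Of 21 ligand genes, 19 had no count in any library, among them all 13 interferon alpha genes and Ifnb1, where 3 counts correspond to at most 0.109 CPM in NM1 KO and 0.120 CPM in WT. Ifnk had 1 count, in NM1 KO replicate 2. Ifng, the type II interferon, had 5, 4 and 6 counts in NM1 KO and 0, 2 and 5 counts in WT, and was too low to test. Its exact 95% Poisson intervals, which cover counting error only, reached from 0.0802 to 0.476 CPM in NM1 KO replicate 3 and from 0.0651 to 0.468 CPM in WT replicate 3.

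All 6 receptor genes were measured and none was called by edgeR. An unadjusted p under 0.05 was reached by 2, Ifnar1 and Il10rb, against 23.7% of all tested genes. Ifnar1, a chain of the type I receptor, had 92.5, 101 and 89.8 CPM in NM1 KO and 75.6, 79.6 and 71.4 CPM in WT. Those groups did not overlap, as for 29.9% of all tested genes (log2 0.32 ± 0.098, edgeR adjusted p = 0.110, DESeq2 adjusted p = 0.0493). Its partner Ifnar2 had a log2 fold change of 0.12 ± 0.12, and the type II receptor chains Ifngr1 and Ifngr2 had 0.098 ± 0.12 and 0.25 ± 0.12. Il10rb, a shared chain of the type III receptor, had one of 0.28 ± 0.092 (edgeR adjusted p = 0.127), and its specific chain Ifnlr1, at 1.32 ± 0.338 CPM in NM1 KO and 1.87 ± 0.821 CPM in WT (SD, n = 3 each), one of -0.50 ± 0.41.

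Of 129 tested pathway genes outside the 31 members, 3 were called, 1 higher and 2 lower, against 4.25% of all tested genes. Jak1, the kinase shared by all interferon receptors, rose, with 327, 286 and 327 CPM in NM1 KO and 198, 202 and 197 CPM in WT (log2 0.66 ± 0.10, edgeR adjusted p = 0.0257). Irf3, the factor that first switches on interferon genes below the RNA and DNA sensors, fell, with 47.3, 55.3 and 51.9 CPM in NM1 KO and 76.5, 77.4 and 82.6 CPM in WT (log2 -0.61 ± 0.10, edgeR adjusted p = 0.0287). These groups lay clear of each other, and neither gene was highest in replicate 3 of both genotypes. Helz2, an interferon-induced helicase that also acts as a coactivator of PPAR receptors, fell, with 47.1, 51.7 and 48.5 CPM in NM1 KO and 88.0, 88.6 and 78.3 CPM in WT (log2 -0.79 ± 0.10, edgeR adjusted p = 0.0186). Each of the 3 calls was lost when certain single libraries were left out. The calls of Jak1 and Irf3 were lost without any library but NM1 KO replicate 2 (adjusted p between 0.0562 and 0.111 for Jak1, and between 0.0785 and 0.115 for Irf3). The call of Helz2 was lost without NM1 KO replicate 3 or any WT library (adjusted p between 0.0616 and 0.0859).

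By group, 1 of 8 JAK-STAT genes, 1 of 18 upstream sensors and adaptors, 0 of 13 brakes (2 at an unadjusted p under 0.05, with DESeq2 and limma-voom calling 1 each) and 1 of 86 other interferon-induced genes were called by edgeR, against 4.25% of all tested genes. DESeq2 called 1 of the JAK-STAT genes, 5 of the sensors and adaptors and 6 of the other induced genes (12.8% of all genes it gave an adjusted p), and limma-voom 1, 3 and 3 (10.4%). Their median log2 fold changes were -0.14 for JAK-STAT genes, 0.22 for sensors and adaptors, -0.044 for brakes and -0.048 for other interferon-induced genes. Among the other interferon-induced genes, replicate 3 was the highest of both groups for 55 of 86, against 9.8% of all tested genes, and among the sensors and adaptors for 0 of 18.

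**Figure D4:**
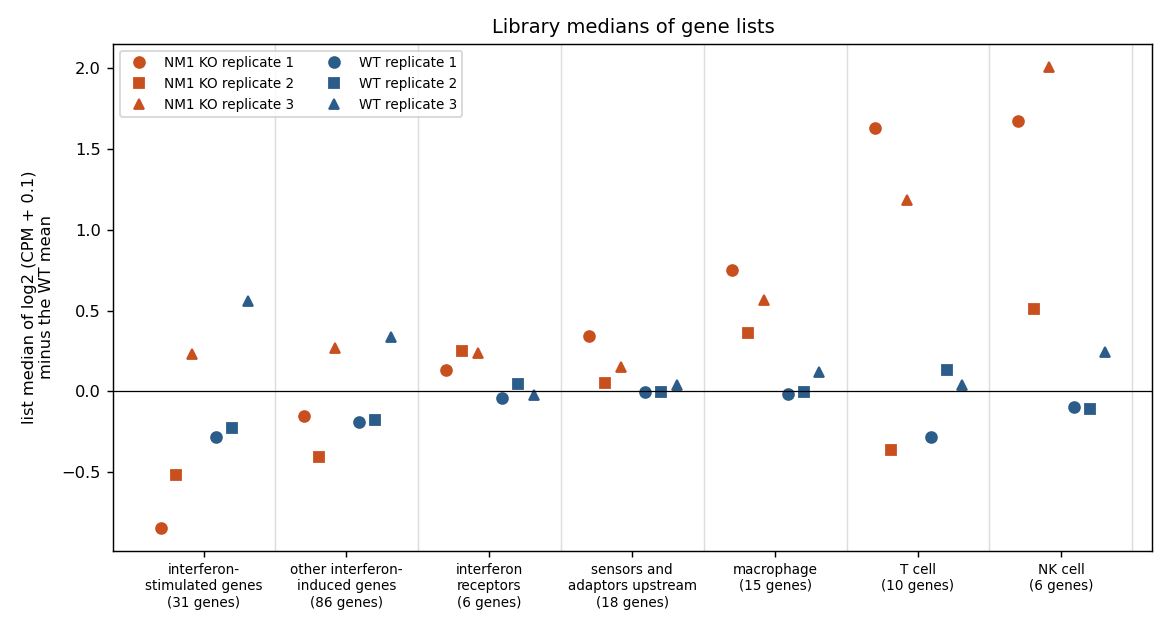
Median over each gene list (x axis) of log2(CPM + 0.1) minus the mean of the WT libraries (y axis), with 1 point for each of 3 NM1 KO (left) and 3 WT (right) libraries. For the interferon-stimulated genes, the other interferon-induced genes and the NK markers replicate 3 is the highest of each genotype. The macrophage medians are 0.75, 0.36 and 0.57 in NM1 KO and at most 0.12 in WT, where replicate 3 is the highest.

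Of 15 macrophage markers, 5 were called, all higher (2.79% of all tested genes), with library medians against the WT mean of 0.75, 0.36 and 0.57 in NM1 KO and -0.018, -0.0048 and 0.12 in WT. Replicate 3 was the highest of both groups for 2 of the 15 (9.8% of all tested genes), and the sum of the markers ranged from 4648 to 5988 CPM in NM1 KO and from 2511 to 3157 CPM in WT. NK markers had medians of 1.68, 0.51 and 2.01 in NM1 KO and -0.10, -0.11 and 0.25 in WT, and replicate 3 was highest in both groups for 4 of the 6 tested. Their summed level was 16.5, 5.95 and 22.7 CPM in NM1 KO and 4.66, 4.76 and 6.25 CPM in WT. Of these NK markers edgeR called 0 of 6, while DESeq2 called 2 of 8 and limma-voom 1 of 6, all higher. The shares called higher over all genes were 2.79% with edgeR, 7.66% with DESeq2 and 6.1% with limma-voom. Of 10 T cell markers 1 was highest in replicate 3 of both groups, and their sum ranged from 23.4 to 93.4 CPM in NM1 KO and from 18.9 to 22.7 CPM in WT. T cell medians were 1.63, -0.36 and 1.19 in NM1 KO and -0.28, 0.13 and 0.042 in WT. Among these markers edgeR called 1, DESeq2 3 and limma-voom 1, all higher. Markers of plasmacytoid dendritic cells, the main producers of type I interferon, were low, with Siglech between 0.656 and 1.68 CPM in NM1 KO and between 0.703 and 2.14 CPM in WT, and Klk1 at 0 in 4 of 6 libraries. The 9 plasmacytoid genes, 7 of which were tested and 0 called (2 at an unadjusted p under 0.05, 0 by DESeq2 or limma-voom), had 1 tested gene highest in replicate 3 of both groups, and the tested genes summed to between 77.8 and 193 CPM in NM1 KO and between 141 and 164 CPM in WT, most of it Tcf4, which other cells also express. All 10 fat cell markers were measured and edgeR called 0 of them (3 had an unadjusted p under 0.05, with DESeq2 calling 2 and limma-voom 1). Their library medians lay between -0.41 and -0.029 in NM1 KO and between -0.094 and 0.036 in WT.

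Replicate 3 of each genotype was also the library with the fewest total counts (27525446 in NM1 KO and 24677758 in WT) and the fewest detected genes (21350 in NM1 KO and 20904 in WT) of its group. Its share of mitochondrial counts, 2.16% in NM1 KO and 2.18% in WT, lay inside the range of its group. Its share of ribosomal protein counts was the lowest of its group in both genotypes, at 1.49% in NM1 KO, where the other libraries had 1.57% and 1.62%, and at 1.56% in WT, where the others had 1.58% and 1.70%. Of the 10 endothelial markers 6 fell and none rose (1.47% of all tested genes were called lower). DESeq2 called all 10 lower, against 5.14% of the genes it gave an adjusted p. All 10 had NM1 KO and WT ranges apart and lower in NM1 KO (15.0% of all tested genes). NM1 KO replicate 1 was the lowest of the 6 libraries for 9 of them (25.8% of all tested genes). They had library medians between -1.44 and -0.88 in NM1 KO and between -0.18 and 0.20 in WT, with 1 of them highest in replicate 3 of both groups. The part of NK and endothelial markers, depth and library quality in the member levels was not tested.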

How the data were processed

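Members and lists were chosen with earlier results of these data known. Per the labels' protocols, RNA of a piece of visceral fat was made into NEBNext Ultra II libraries. Per the submitters' processing notes, reads were handled with HTSeq, HISAT2 2.0.4, Trimmomatic 0.36, SAMtools 0.1.19 and FastQC, and the build was GRCm38 (mm10). Annotation and strand setting were not given in the sources used here. The authors deposited whole-number counts per Ensembl gene, with no normalization, for 46603 identifiers, of which 46091 matched GENCODE M21.

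The test was that of edgeR 4.0.16 under R 4.3.3 (filterByExpr, TMM, robust quasi-likelihood, genotype only, two-sided, Benjamini-Hochberg over all tested genes), checked on simulated data. SE is the fold change over the square root of F. Alternatives were other size factors and filters, DESeq2 1.42.0, limma-voom (limma 3.58.1) with quality weights, a GC and length offset (splines with 5 degrees of freedom), the replicate number as a block, and leaving out libraries. Differences between single libraries use log2(CPM + 0.1). Named in every library were called members, the 3 smallest p in each direction, the 3 widest and narrowest spreads, and Ifit1, Isg15, Mx1, Irf7, Stat2, Irf1 and Usp18. Ifi27l2a and the neighbours of Xaf1 were added after their values were seen. Of the pathway lists, every called gene, every ligand with a count and every receptor was named. No 2 libraries of a group agreed within sampling noise (chi-square per degree of freedom at least 35.9). Counting intervals and the floor of 3 counts cover counting error only. Figures were drawn with matplotlib 3.10.9.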

Additional observations from a re-analysis of the deposited data

How the results depend on the processing

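No member was called by edgeR with other size factors, with either other filter, with the GC and length offset alone or without any 1 library. Without WT replicate 3, only 1 gene of any kind was called, so the absence of called members in that fit says nothing about them. The replicate block called 1 member, Xaf1 (adjusted p = 0.0324), 336 of all genes and 7 pathway genes, and the calls of Jak1 (adjusted p = 0.0562) and Irf3 (adjusted p = 0.0570) were lost in it while their log2 fold changes were 0.65 and -0.62. Same-numbered libraries had deviations correlated at -0.060, -0.035 and 0.19. As these were not all over 0.1, the libraries were not treated as pairs. The replicate 3 libraries correlated best with each other, the others did not correlate best with their own number, and what the replicate 3 libraries share was not tested. The GC and length offset with the replicate block called 3 members (Xaf1 higher, Stat2 and Oasl2 lower) and 10 pathway genes. The share of all genes called in that fit is not given here, so these counts have no background to be read against. DESeq2 called 1 member, 2193 genes and 14 pathway genes, and limma-voom 1, 1648 and 8. The pathway count was 5 of 132 without a filter, where 917 of 26398 genes were called. It was 5 with the offset alone, where the share of all genes called is not given here. Without 1 library, all calls numbered between 1 (without WT replicate 3) and 1654 (without NM1 KO replicate 2), and pathway calls between 0 and 10. The pathway count of 0 arose without NM1 KO replicate 3 or any WT library, with at least 20 at an unadjusted p under 0.05. The share of all genes called is not given here for each of those fits, so the 0 is not read as a result about the pathway. Without replicate 3 of both genotypes edgeR called 0 genes and 0 pathway genes (1970 and 20 at an unadjusted p under 0.05). The members' median lay between -0.76 and -0.069 when 1 library was left out, and the cause of these shifts was not tested beyond the libraries named.

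Signs turned for several members. Leaving out 1 library gave log2 fold changes from -0.89 to 0.24 for Ifit1, -0.28 to 0.41 for Ifit2, -0.79 to 0.055 for Ifit3, -0.47 to 0.23 for Ifit3b, -0.92 to 0.18 for Oas3, -0.62 to 0.074 for Bst2, -1.70 to 0.18 for Ifi44, -0.78 to 0.092 for Rtp4, -0.47 to 0.18 for Cmpk2, -0.80 to 0.12 for Gbp3, -0.19 to 0.38 for Ifih1 and -0.097 to 0.43 for Trim30a. All the positive ends but that of Ifih1 arose without WT replicate 3. Ifngr1 stood at -0.019 without NM1 KO replicate 3 and at -0.030 without both replicates 3. The GC and length offset gave -0.13 for Ifit2, -0.084 for Ddx58, -0.25 for Ifih1 and -0.025 for Trim30a, and with the block -0.045, -0.077, -0.27 and -0.017. Upper-quartile factors gave -0.00026 for Ifit2, and limma-voom 0.066 for Gbp2.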
